A study of Mus musculus with 6 samples.

Results

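The nuclear pore complex and the soluble receptors that carry proteins and RNA through it were examined in the calvaria (the bones that roof the skull) of mice lacking *Tmem53*, a gene for a nuclear envelope protein. The set was defined by gene symbol, with earlier results of these data known. It holds the nucleoporins, the importins (karyopherins and transportins), the exportins and the proteins of the Ran cycle. It takes 54 entries with 53 distinct symbols out of 32350 entries in the expression table, and 51 of the 54 were abundant enough to be tested among 13535 entries in all. The entries lie on 16 chromosomes, and 0 of them lie on X or Y. The 2 entries named *Tnpo1* share the same coordinates, so the division of fragments between them is uncertain.

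The tissue came from 3 homozygous Tmem53-/- pups and 3 heterozygous Tmem53+/- siblings of strain B6N on day 3 after birth, with a library for each pup. All 6 pups carried at least 1 frameshift allele made with CRISPR/Cas9 in every cell, and no wild-type calvaria were among these libraries. *Tmem53* itself was at 13.9, 10.9 and 10.04 FPKM in Tmem53-/- libraries and at 7.22, 6.38 and 7.16 FPKM in heterozygous libraries, and since a frameshift allele can still be transcribed, its RNA level does not check the genotype labels. By *Xist* and the Y-linked genes *Ddx3y* and *Eif2s3y*, the 3 Tmem53-/- pups were male, and 1 heterozygous pup (replicate 2) was male and 2 were female, so that sex was partly aligned with genotype. The values are FPKM, fragments scaled to transcript length and to library size, as estimated by the authors with Cufflinks and Cuffdiff, and a log2 fold change is the difference in mean log2(FPKM + 0.5), Tmem53-/- minus heterozygous.

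The nuclear pore is a ring-shaped channel through both membranes of the nuclear envelope. An outer ring on each face and an inner ring form its scaffold, nucleoporins with phenylalanine-glycine repeats fill its channel, and filaments reach out on the cytoplasmic side and a basket on the nuclear side. Importins bind cargo in the cytoplasm and release it where Ran is bound to GTP, and exportins bind cargo together with Ran-GTP in the nucleus. SMAD proteins, which relay BMP and TGF-beta signals in bone-forming cells, pass through this channel, and the study examined BMP-SMAD signalling and SMAD entry into the nucleus in cells without TMEM53.

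Of the 51 entries tested, 0 rose and 0 fell in Tmem53-/- calvaria at a Benjamini-Hochberg adjusted p under 0.05 by limma, where 7.06% of all genes tested were called (3.44% higher and 3.63% lower). At an unadjusted p under 0.05 there were 5 entries (9.8%), against 27.9% of all genes tested. Log2 fold changes ran from −0.24 for *Ipo13* to 0.57 for *Nutf2*, with a median of 0.06, against 0.05 over all genes tested. The median size of the change, regardless of sign, was 0.11 for the nuclear transport entries and 0.20 for the 9200 genes in the same range of levels. A change smaller than 0.25 was found for 80.4% of the nuclear transport entries and for 55.1% of all genes tested, whatever their level. The entries also varied less between pups of a genotype. Their median SD on the log2 scale was 0.135, against 0.164 for the genes in the same range of levels and 0.183 for all genes tested. The part of this smaller spread in the smaller changes was not tested. The adjusted p ran from 0.0622 for *Sec13* to 0.996 for *Nup205*.

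The intervals given here come from the main fit, which took no account of sex. With sex as a covariate the median log2 fold change of the set was −0.08. The 95% confidence interval lay within a 2-fold change in either direction for 50 of the 51 entries and within a 1.5-fold change for 43 of them, the exception at 2-fold being *Nutf2*. The half-width of the interval ran from 0.19 to 0.69 on the log2 scale, with a median of 0.28. Changes inside an interval remain compatible with these libraries, and 46 of the 51 intervals include 0. A bulk sample cannot tell fewer cells of a type from less RNA per cell.

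**Figure D1:**
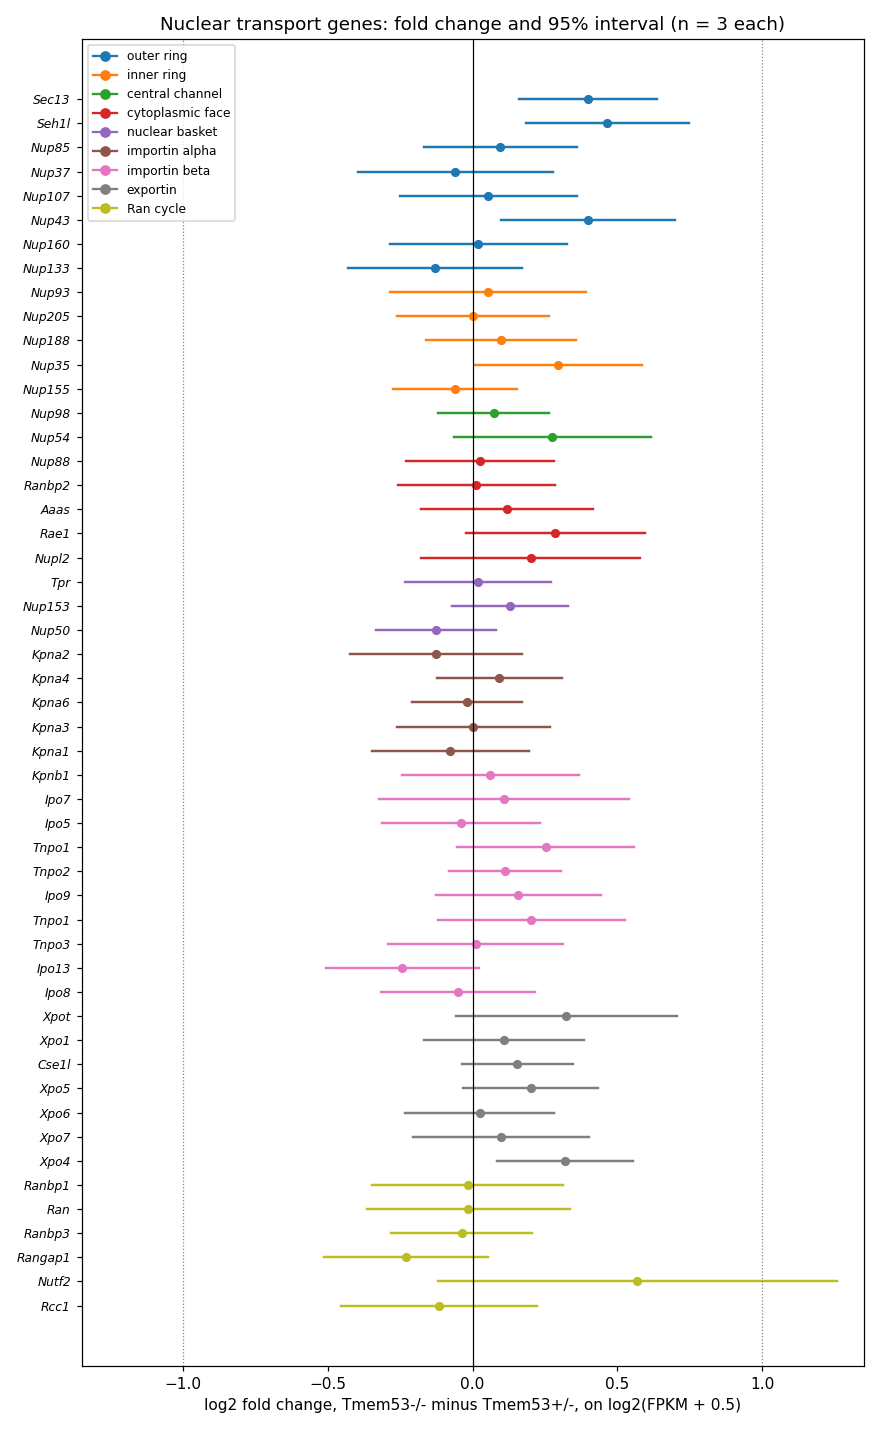
Log2 fold change (Tmem53-/- minus Tmem53+/-, x axis) of the 51 tested entries, 1 per row and coloured by role, with points for the estimate and bars for the limma 95% confidence interval. The dotted lines mark a 2-fold change, and the interval of *Nutf2*, from −0.12 to 1.26, is the only one that passes them.

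Summed over the 51 entries, the level was 1211, 1271 and 1354 FPKM in Tmem53-/- replicates 1, 2 and 3, against 1109, 1286 and 1178 FPKM in heterozygous replicates 1, 2 and 3. The genotypes overlapped in this sum, and heterozygous replicate 2 lay above Tmem53-/- replicates 1 and 2. Heterozygous replicate 2 was the highest of its group for 35 of the 51 entries (68.6%, and 49.8% of all genes tested). Tmem53-/- replicate 3 was the highest of its group for 32 (62.7%, and 46.3% of all genes tested). Within a genotype, Pearson's r across all genes on the log2 scale ran from 0.952 to 0.991. In 14 of the 51 entries (27.5%) the genotypes did not overlap, 11 higher and 3 lower in Tmem53-/- calvaria, against 37.2% of all genes tested (21.2% higher and 16.0% lower).

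Summed levels of cartilage, osteoclast, macrophage, skeletal muscle and endothelial markers did not overlap between the genotypes in the same libraries, while those of osteoblast, neuron and glia, and red blood cell markers did. Cartilage markers (5 of 5 found) summed to between 427 and 3766 FPKM in Tmem53-/- and to between 59.5 and 88.1 FPKM in heterozygous calvaria. Osteoclast markers (5 of 5) summed to between 193 and 333 FPKM in Tmem53-/- and to between 657 and 3733 FPKM in heterozygous calvaria, and macrophage markers (3 of 4) to between 9.15 and 99.1 FPKM, against 159.9 and 214 FPKM. Osteoblast markers (7 entries for 6 genes) summed to between 311 and 4339 FPKM in Tmem53-/- and to between 65.0 and 3017 FPKM in heterozygous calvaria. This sum includes *Col1a1*, listed at 0 in Tmem53-/- replicate 3 and heterozygous replicate 2, so its overlap is no result about the other osteoblast markers. The study reported *Runx2*, *Sp7*, *Alpl*, *Ibsp* and *Bglap* as raised in mutant calvaria. Skeletal muscle markers (4 of 4) summed to between 1.33 and 4.85 FPKM in Tmem53-/- and to between 5.47 and 7.56 FPKM in heterozygous calvaria. Of these 4 muscle markers, 3 had a mean below 0.5 FPKM, the limit for testing, as did all 4 endothelial markers. Markers of endothelium and of red blood cells were each listed at a sum below 0.5 FPKM in every library (endothelium 0.171 to 0.368 FPKM in Tmem53-/- and 0.411 to 0.493 FPKM in heterozygous calvaria), with *Tie1*, *Hba-a1* and *Hbb-b1* listed at 0 throughout. A listed 0 is not a sign of absence in this table, since the abundant collagen gene *Col1a1* was listed at 0 in Tmem53-/- replicate 3 and heterozygous replicate 2 and at 2614 FPKM or more in the other libraries. Of the nuclear transport entries, 0 were at 0 in some libraries and not in others. The part of these cell types in the values below was not tested.

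The outer ring, or Y complex, is the scaffold that coats the pore membrane on both faces, and it held the 2 entries of the lowest p in the set. *Sec13* encodes a beta-propeller shared between this ring and the COPII coat of vesicles leaving the endoplasmic reticulum. It was at 155, 165 and 168 FPKM in Tmem53-/- replicates 1, 2 and 3, against 119, 118 and 134 FPKM in heterozygous replicates 1, 2 and 3. Each mutant library was above each heterozygous one, with means of 163 ± 6.92 and 124 ± 9.18 FPKM (SD, n = 3 each). The log2 fold change of 0.40 (95% confidence interval 0.16 to 0.64) did not pass the test (limma adjusted p = 0.0622), and the exact two-sided permutation p was 0.1, the smallest that 3 against 3 allow. Without heterozygous replicate 2 the adjusted p of *Sec13* was 0.0477, and over its alternatives it ran from 0.0409 to 0.208.

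*Seh1l*, the neighbour of *Nup85* in the ring and also a subunit of the amino acid sensing complex GATOR2, was at 22.4, 20.3 and 26.9 FPKM in the 3 Tmem53-/- libraries. In the heterozygous libraries it was at 16.6, 16.7 and 16.4 FPKM. The mutants again lay above the heterozygotes, but spread more widely (23.2 ± 3.37 and 16.5 ± 0.13 FPKM, SD, n = 3 each). The log2 fold change was 0.47 (0.18 to 0.75, limma adjusted p = 0.0632), with adjusted p from 0.0267 to 0.191 over the alternatives.

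*Nup43*, a peripheral subunit of the Y complex in animals, was at 7.27, 7.96 and 8.07 FPKM in Tmem53-/- calvaria, against 4.88, 6.15 and 6.37 FPKM in heterozygous calvaria. The groups did not overlap, and the log2 fold change was 0.40 (0.10 to 0.70, limma adjusted p = 0.1002). The other 5 members of the ring, *Nup85*, *Nup37*, *Nup107*, *Nup160* and *Nup133*, overlapped between the genotypes and had log2 fold changes from −0.13 to 0.10. *Nup107*, on which the stem of the Y is built, was at 8.96, 10.8 and 10.3 FPKM in Tmem53-/- and at 8.54, 11.0 and 9.47 FPKM in heterozygous calvaria. *Nup133*, at the tip of the stem, was the lowest of the ring with a mean of 4.03 FPKM over all libraries, and *Sec13* the highest with 143 FPKM.

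The inner ring encircles the channel and anchors the repeat-bearing nucleoporins. *Nup35*, which binds membrane, was at 7.002, 6.16 and 6.12 FPKM in the 3 Tmem53-/- libraries, and at 4.77, 4.80 and 5.89 FPKM in the heterozygous ones. The lowest mutant was just above the highest heterozygote, and the log2 fold change of 0.30 (0.01 to 0.59) did not pass the test (limma adjusted p = 0.171). *Nup155*, a linker of this ring, was nearly level at 5.49 ± 0.25 FPKM in Tmem53-/- and 5.74 ± 0.05 FPKM in heterozygous calvaria (SD, n = 3 each, log2 fold change −0.06, −0.27 to 0.15). *Nup93*, *Nup205* and *Nup188* overlapped between the genotypes, with log2 fold changes of 0.05, 0.00 and 0.10. *Nup93* was the highest of the 5, at 29.2, 23.9 and 21.7 FPKM in Tmem53-/- and 21.3, 26.6 and 23.8 FPKM in heterozygous calvaria.

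Both pore membrane entries that the symbols selected were below the limit for testing, a mean of 0.5 FPKM. *Nup210*, which encodes a transmembrane nucleoporin that varies between cell types, was at 0.039, 0.020 and 0.0098 FPKM in Tmem53-/- and at 0.201, 0.061 and 0.138 FPKM in heterozygous calvaria. The mutants were lower without overlap at this level close to 0. In the fit without a filter its log2 fold change was −0.27 (−0.48 to −0.06, limma adjusted p = 0.135), a value shrunken by the added 0.5. *Nup210l*, its testis relative, stayed between 0.203 and 0.355 FPKM in all libraries.

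Of the nucleoporins of the channel, the cytoplasmic face and the basket, *Rae1* and *Nup54* had the largest log2 fold changes, 0.29 and 0.28, and 0 passed the test. *Nup98*, a repeat-bearing nucleoporin of the channel and both faces, was at 12.4, 12.7 and 13.3 FPKM in Tmem53-/- and 12.2, 11.9 and 12.3 FPKM in heterozygous calvaria. The groups did not overlap, yet the log2 fold change was only 0.07 (−0.12 to 0.26, limma adjusted p = 0.594). *Nup54*, of the central channel, was at 9.35, 11.0 and 12.9 FPKM in Tmem53-/- and 9.11, 8.16 and 9.86 FPKM in heterozygous calvaria (log2 fold change 0.28, −0.06 to 0.62).

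On the cytoplasmic face, *Rae1*, a partner of *Nup98* in mRNA export, was at 21.7, 19.2 and 20.7 FPKM in Tmem53-/- libraries, against 17.9, 14.1 and 18.7 FPKM in heterozygous libraries. The mutants lay above the heterozygotes, with the lowest value in heterozygous replicate 2 (log2 fold change 0.29, −0.02 to 0.59, limma adjusted p = 0.206). *Nup88*, the highest of the face, *Ranbp2*, which forms the filaments and holds *Rangap1* protein at the pore, *Aaas*, which encodes ALADIN, and *Nupl2*, the lowest, overlapped between the genotypes with log2 fold changes from 0.01 to 0.20. *Nupl2* had means of 6.54 ± 0.6 FPKM in Tmem53-/- and 5.68 ± 1.19 FPKM in heterozygous calvaria (SD, n = 3 each), and *Nup88* of 24.4 ± 1.67 and 24.1 ± 2.45 FPKM.

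The basket faces the nucleoplasm and holds *Nup153*, which binds SMAD2 in human cells. *Nup153* was at 11.5, 12.1 and 12.6 FPKM in Tmem53-/- and 10.8, 11.3 and 10.8 FPKM in heterozygous calvaria. The mutants were higher without overlap, by 0.13 on the log2 scale (−0.07 to 0.33, limma adjusted p = 0.353). *Nup50*, a cofactor of importin release, was lower without overlap, at 10.1, 10.3 and 10.3 FPKM in Tmem53-/- against 11.1, 12.0 and 10.6 FPKM in heterozygous calvaria (−0.13, −0.33 to 0.08, limma adjusted p = 0.377). *Tpr*, which builds the filaments of the basket, averaged 24.6 ± 1.99 FPKM in Tmem53-/- and 24.3 ± 2.16 FPKM in heterozygous calvaria (SD, n = 3 each).

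**Figure D2:**
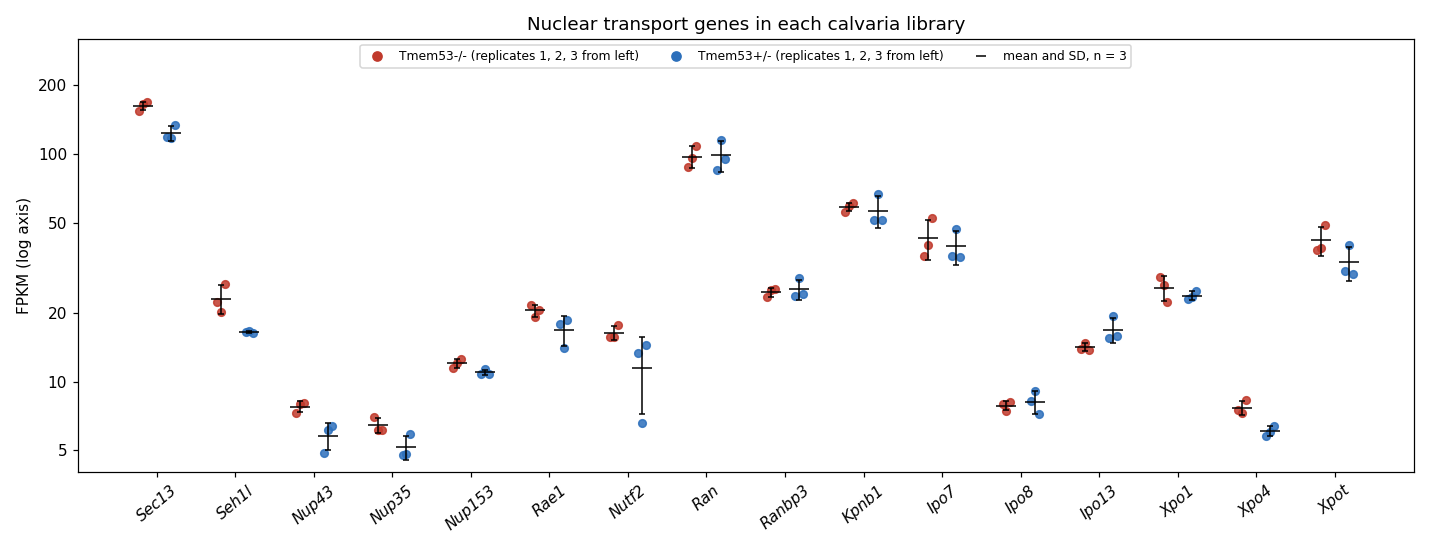
FPKM on a log axis of 16 nuclear transport genes in the 6 calvaria libraries, with Tmem53-/- in red to the left of Tmem53+/- in blue and bars for mean and SD (n = 3 each). *Sec13*, *Seh1l*, *Nup43*, *Nup35*, *Nup153*, *Rae1*, *Nutf2* and *Xpo4* show every mutant above every heterozygote, and *Ipo13* shows every mutant below. *Kpnb1*, *Ipo7*, *Ipo8*, *Ran*, *Ranbp3*, *Xpo1* and *Xpot* overlap. *Nutf2* has its lowest value, 6.57 FPKM, in heterozygous replicate 2.

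Importin alpha proteins are adaptors that recognise the classical nuclear localisation signal and dock on importin beta. Of 6 entries, 5 were tested and all 5 overlapped between the genotypes, with log2 fold changes from −0.13 to 0.09. *Kpna2*, the highest, was at 28.3, 32.2 and 27.3 FPKM in Tmem53-/- and 27.9, 32.3 and 36.0 FPKM in heterozygous calvaria. *Kpna4* followed at a mean of 28.5 FPKM over all libraries, which lay within the spread of *Kpna2*, then *Kpna6* at 17.1, *Kpna3* at 15.2 and *Kpna1* at 13.4 FPKM. *Kpna6* had the smallest spread between pups of these, at 17.0 ± 0.77 FPKM in Tmem53-/- and 17.2 ± 0.22 FPKM in heterozygous calvaria (SD, n = 3 each, log2 fold change −0.02, −0.21 to 0.17). *Kpna7*, known from the mouse oocyte and early embryo, was listed at 0 in every library.

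Of the importin beta family, 10 entries were tested. *Kpnb1*, importin beta itself, was the highest at 55.8, 58.9 and 60.6 FPKM in Tmem53-/- and 51.4, 66.6 and 51.1 FPKM in heterozygous calvaria. All mutants lay within the range of the heterozygotes (log2 fold change 0.06, −0.24 to 0.37, limma adjusted p = 0.789). Importins 7 and 8 carry SMAD proteins in fly and human cells. *Ipo7* was at 35.8, 39.9 and 52.1 FPKM in Tmem53-/- and 35.5, 47.0 and 35.4 FPKM in heterozygous calvaria, with the widest interval of the family (0.11, −0.32 to 0.54, limma adjusted p = 0.732). *Ipo8*, the lowest of the family, was at 8.01, 7.45 and 8.12 FPKM in Tmem53-/- and 8.24, 9.10 and 7.22 FPKM in heterozygous calvaria (−0.05, −0.32 to 0.22, limma adjusted p = 0.804). Neither showed a difference beyond the spread between pups.

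*Ipo13*, which carries cargo in both directions, had the lowest fold change of the set. It was at 14.0, 14.8 and 13.7 FPKM in Tmem53-/- and at 15.6, 19.3 and 15.9 FPKM in heterozygous calvaria. Every mutant was below every heterozygote, of which replicate 2 stood highest (log2 fold change −0.24, −0.50 to 0.02, limma adjusted p = 0.207). The 2 entries of *Tnpo1*, transportin 1, overlapped between the genotypes, with log2 fold changes of 0.25 and 0.20 and means of 33.1 and 22.9 FPKM in Tmem53-/- against 27.7 and 19.7 FPKM in heterozygous calvaria. Among *Tnpo2*, *Tnpo3*, which carries splicing factors, *Ipo5* and *Ipo9*, the log2 fold changes ran from −0.04 to 0.16.

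All 7 exportin entries had positive log2 fold changes, from 0.02 to 0.32, and 0 of them passed the test. Positive values were found for 36 of the 51 entries of the set and for 7702 of the 13535 genes tested, and *Xpo6* and *Xpo7* were negative in at least 1 alternative, at −0.15 and −0.14 with sex as a covariate. *Xpo4*, which exports SMAD3 in human cells, was at 7.50, 7.27 and 8.34 FPKM in Tmem53-/- and 5.81, 6.01 and 6.40 FPKM in heterozygous calvaria. Its mutants lay above its heterozygotes (7.7 ± 0.56 and 6.07 ± 0.3 FPKM, SD, n = 3 each), and they differed by 0.32 on the log2 scale (0.08 to 0.55). The limma adjusted p was 0.0958 and ran from 0.0891 to 0.271 over the alternatives. *Xpot*, the exportin of tRNA and the highest of the group, was at 37.7, 38.8 and 48.9 FPKM in Tmem53-/- and 30.6, 39.9 and 29.6 FPKM in heterozygous calvaria. It overlapped through heterozygous replicate 2 (0.32, −0.06 to 0.70, limma adjusted p = 0.234).

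*Xpo5*, the exportin of precursor miRNAs, and *Cse1l*, which returns importin alpha to the cytoplasm, were higher in every mutant than in any heterozygote, by 0.20 and 0.15 on the log2 scale (limma adjusted p = 0.232 and 0.256). *Xpo1*, the exportin of leucine-rich signals, which also exports SMAD4, was at 28.8, 26.6 and 22.3 FPKM in Tmem53-/- and 23.0, 23.5 and 25.1 FPKM in heterozygous calvaria (0.11, −0.17 to 0.38, limma adjusted p = 0.58). *Xpo6*, the exportin of actin, and *Xpo7* overlapped, at log2 fold changes of 0.02 and 0.10.

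The Ran cycle sets the direction of transport. *Ran* itself was at 87.2, 95.6 and 109 FPKM in Tmem53-/- and at 85.2, 115 and 95.5 FPKM in heterozygous calvaria, and *Ranbp1*, the highest of the group, at 112, 119 and 132 FPKM in Tmem53-/- and 105, 141 and 122 FPKM in heterozygous calvaria. Mutants lay within the heterozygous range for both genes, with log2 fold changes of −0.01 (−0.36 to 0.34) for *Ran* and −0.02 (−0.35 to 0.31) for *Ranbp1*. *Rcc1*, the exchange factor that loads Ran with GTP on chromatin, was the lowest of the group, at 8.52, 9.77 and 11.3 FPKM in Tmem53-/- and 9.63, 12.2 and 10.3 FPKM in heterozygous calvaria (−0.11, −0.45 to 0.22). *Rangap1*, which makes Ran hydrolyse GTP, was lower without overlap, at 17.7, 18.7 and 16.5 FPKM in Tmem53-/- against 19.1, 24.1 and 19.4 FPKM in heterozygous calvaria (−0.23, −0.51 to 0.05, limma adjusted p = 0.251).

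*Ranbp3*, a cofactor of *Xpo1* protein that takes SMAD2 and SMAD3 out of the nucleus in human cells, was at 23.5, 25.2 and 25.6 FPKM in Tmem53-/- and 23.7, 28.4 and 24.3 FPKM in heterozygous calvaria. The groups overlapped (−0.04, −0.28 to 0.21, limma adjusted p = 0.847). *Nutf2* encodes NTF2, which brings Ran back into the nucleus. It was at 15.8, 15.7 and 17.7 FPKM in Tmem53-/- and 13.4, 6.57 and 14.5 FPKM in heterozygous calvaria. The groups did not overlap, and 1 heterozygous library, the male replicate 2, was far below the other 5. The log2 fold change, the largest of the set, was 0.57 (−0.12 to 1.26, limma adjusted p = 0.246), and 0.23 without that library.

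**Figure D3:**
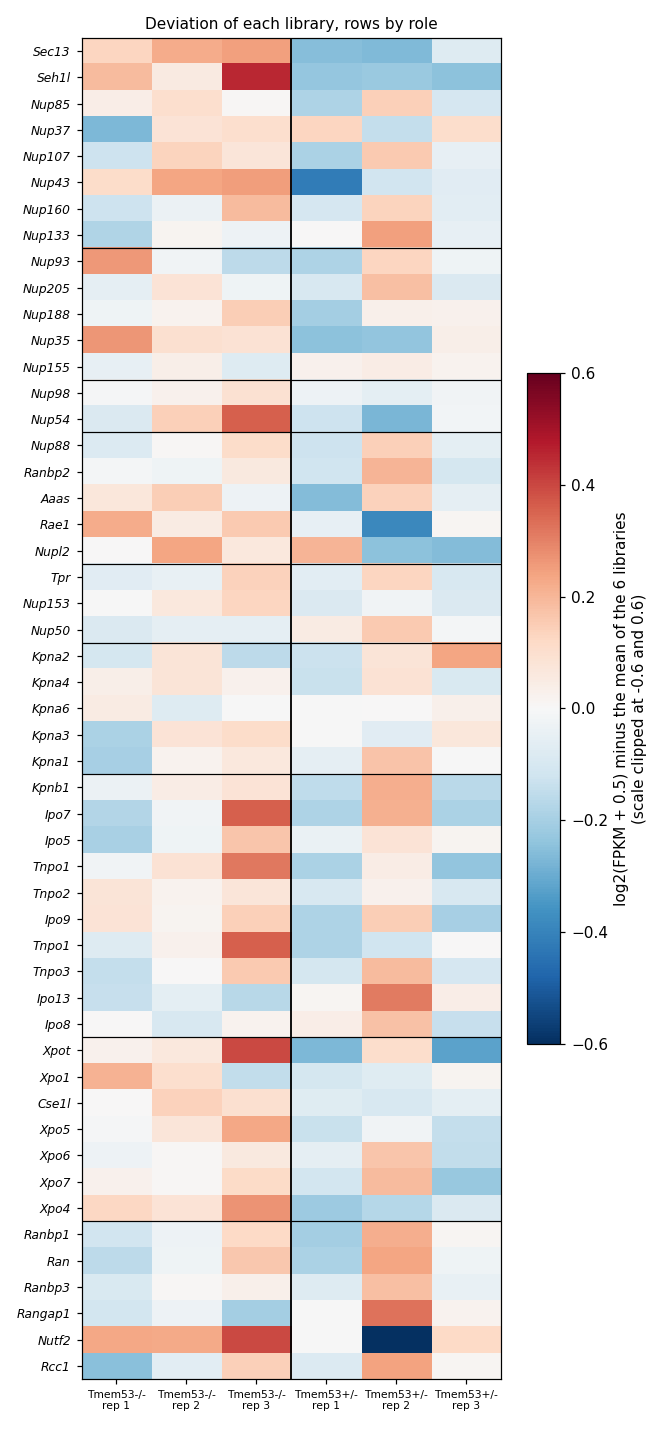
Deviation of log2(FPKM + 0.5) from the mean of the 6 libraries for the 51 tested entries, rows grouped by role from the outer ring at the top to the Ran cycle at the bottom, Tmem53-/- replicates 1 to 3 left of Tmem53+/- replicates 1 to 3. Red tones collect in Tmem53-/- replicate 3 and in heterozygous replicate 2, which were the highest of their groups for 32 and 35 entries.

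The SMAD carriers and binding partners in the set were *Ipo7*, *Ipo8*, *Kpnb1*, both entries of *Tnpo1*, *Nup153*, *Xpo1*, *Xpo4*, *Ranbp3* and *Ran*. They had no call, and of them only *Nup153* and *Xpo4* did not overlap between the genotypes. Over all genes tested, 7.06% were called and 37.2% did not overlap, so these counts are no result about the SMAD carriers. *Nup214*, another partner of SMAD2 in human cells, is merged in the table with LOC100504305 and was outside the set. That merged entry was at 7.55, 6.79 and 6.62 FPKM in Tmem53-/- and at 8.76, 6.26 and 8.07 FPKM in heterozygous calvaria (log2 fold change −0.12, limma adjusted p = 0.62). The merged entries that hold *Nup62*, *Nupl1*, *Ipo4* and *Ipo11* had log2 fold changes of −0.14, 0.29, 0.04 and −0.10, with a lowest adjusted p of 0.19 for *Nupl1*, and were not called.

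**Figure D4:**
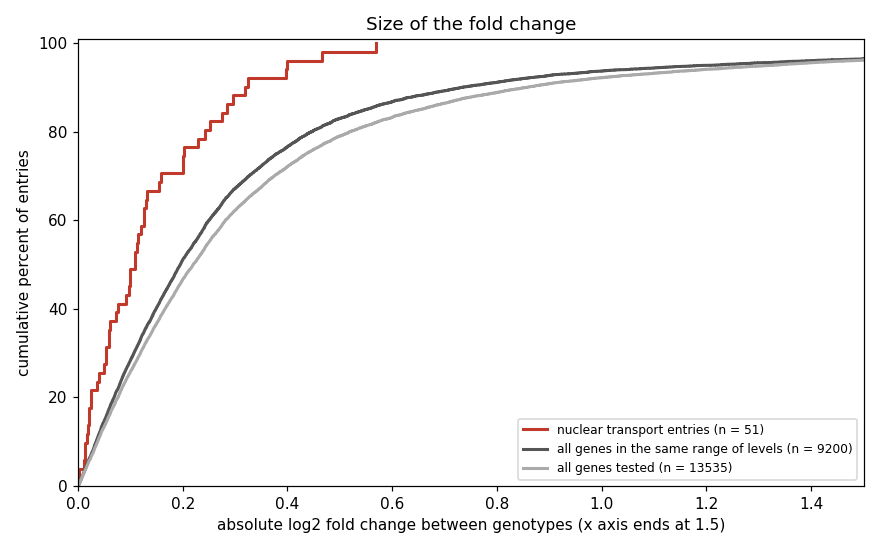
Cumulative percent of entries (y axis) against the absolute log2 fold change between Tmem53-/- and Tmem53+/- calvaria (x axis, which ends at 1.5), for the 51 nuclear transport entries in red, the 9200 genes in the same range of levels in dark grey and the 13535 genes tested in light grey. The red line lies left of both grey lines and ends at 0.57, the value of *Nutf2*.

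Genes next to the set in function were counted in the same fit, in which 7.06% of all genes tested were called. Of 22 other tested genes of nuclear transport, among them those for the pore membrane proteins *Pom121* and *Tmem48* and the mRNA export factors *Nxf1* and *Gle1*, 1 rose and 0 fell, with a median log2 fold change of 0.12. The 1 was *Rangrf*, which encodes a factor that releases nucleotide from Ran, at 10.5 ± 1.21 FPKM in Tmem53-/- and 6.2 ± 1.02 FPKM in heterozygous calvaria (SD, n = 3 each, log2 fold change 0.72, limma adjusted p = 0.0414). Its call was lost without any 1 library other than heterozygous replicate 2 (adjusted p from 0.0825 to 0.149). Of 8 SMAD genes, 1 rose and 0 fell, with a median of 0.22. It was *Smad3*, at 14.7 ± 1.38 FPKM in Tmem53-/- and 9.74 ± 0.52 FPKM in heterozygous calvaria (SD, n = 3 each, 0.56 on the log2 scale, limma adjusted p = 0.0327), a call likewise lost without any 1 library other than heterozygous replicate 2 (adjusted p from 0.0612 to 0.13). Of 20 genes of the inner nuclear membrane and lamina, 0 rose and 0 fell (4 at an unadjusted p under 0.05), with a median of 0.04. Of 27 genes of DNA replication and mitosis, 0 rose and 2 fell, with a median of −0.10. These were the licensing factor *Cdt1* (−0.97, limma adjusted p = 0.0216) and its inhibitor *Gmnn*, geminin (−0.98, limma adjusted p = 0.0291), and both calls were lost on leaving out Tmem53-/- replicate 1 or 2 or heterozygous replicate 1 or 3 (adjusted p from 0.0557 to 0.122). These 4 genes were named after their values were seen. With lists of this size, 0 to 2 calls are near the 7.06% called over all genes tested and say nothing particular to a list.

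Promoters were read from RefSeq for 41 of the 53 symbols, as 49 windows of build GRCm38.p6 from 250 bases before to 50 bases after the start of transcription. The windows were searched on both strands, and matches of different motifs may overlap. The palindrome bound by NRF1, the letters in capitals in the first 4 windows printed here, was in 8.16% of the member windows and in 0.971% of all 32851 windows. The ETS letters CCGGAAGT were in 12.2% of the member windows and in 3.89% of all windows. The SP1 letters GGGCGG were in 67.3% and 35.7%, CCAAT in 44.9% and 37.4%, TATAAA in 10.2% and 13.6%, and GGCGCC, the core of a GC-rich SMAD element, in 20.4% and 11.9%. Against the 11273 windows of genes that were tested here, which are expressed in calvaria, these shares were 1.95% for NRF1, 7.35% for ETS, 62.4% for GGGCGG, 37.4% for CCAAT, 7.25% for TATAAA and 20.8% for GGCGCC. Matches of NRF1 and ETS are shown, with the matched letters in capitals. These 2 motifs had the highest ratio of the share in member windows to that in all windows. Of 6 member windows with the ETS letters, only that of *Sec13*, the entry of the lowest p, is printed.
Ran promoter, chr5:129019941-129019970, plus strand: cccgcagccaGCGCATGCGCgtggcagccc
Nup107 promoter, chr10:117792751-117792780, minus strand: gacgaaagtcGCGCATGCGCcgagcgggaa
Nup50 promoter, chr15:84923251-84923280, plus strand: gggcgggcttGCGCATGCGCcgcgcgaccc
Xpo5 promoter, chr17:46202716-46202745, plus strand: acttccgcgcGCGCATGCGCcgtggcggct
Sec13 promoter, chr6:113740689-113740718, minus strand: gcgggccggcaCCGGAAGTgaagcgttttg

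The 4 genes with the NRF1 letters had log2 fold changes of −0.01 for *Ran*, 0.05 for *Nup107*, −0.13 for *Nup50* and 0.20 for *Xpo5*, with no call and no shared direction. Besides *Sec13*, the ETS letters were in windows of *Rae1* (0.29), *Nup54* (0.28), *Aaas* (0.12), *Tnpo3* (0.01) and *Nup155* (−0.06), with no call and no shared direction. In the coordinates of the deposited table, which are those of NCBI build37.2, *Sec13* lies on chromosome 6 from 113678045 to 113690702 and *Nup43* on chromosome 10 from 7387301 to 7398684. *Xpo4* lies on chromosome 14 from 58196370 to 58288433 and *Nutf2* on chromosome 8 from 108384533 to 108404302. Of the 54 entries, 15 overlap another named entry in the table, *Nutf2* among them, and whether strand was used in counting is not given in the sources used here, so their reads could be shared with a neighbour.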

How the data were processed

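Libraries were made from rRNA-depleted RNA with a directional kit and sequenced in paired ends. Alignment by the authors used TopHat2 2.1.1 and mouse NCBI build37.2, and they deposited FPKM per gene from Cufflinks 2.1.1 and Cuffdiff 2.1.1, 1 column per pup. Neither annotation nor scaling across libraries was given in the sources used here. FPKM sums per library ran from 569846 to 611928. No read counts were used, so the precision rests on the spread between pups. The limma p-values set the fold change against that spread, moderated across genes.

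FPKM were used as deposited. Entries without a symbol (7233) or with a mean below 0.5 FPKM were left out. Genotypes were compared with limma 3.58.1 in R 4.3.3 on log2(FPKM + 0.5), with eBayes and a variance trend, tested on simulated data, with Benjamini-Hochberg adjustment over all 13535 entries. Fold changes on that scale understate the change of low genes. The exact permutation test over samples (scipy 1.17.1) was two-sided.

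Members were selected by symbol, and members, role groups and lists were chosen with earlier results of these data known. Every member called, or with an unadjusted p under 0.05 and no overlap, was named with its values, as were SMAD carriers and the highest and lowest member of each role. *Xpot*, *Rae1*, *Ipo13*, *Nutf2* and others were described after their values were seen. The labels do not say whether replicate numbers pair the pups, and the main fit used no pairing.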

Additional observations from a re-analysis of the deposited data

How the results depend on the processing

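Across 18 alternatives, 14 called 0 nuclear transport entries. With quantile normalization 2 were called higher, *Seh1l* (adjusted p = 0.047) and *Sec13* (0.0484). With sex as a covariate, which sets the mutants against the 1 male heterozygote, 2 were called higher, *Nutf2* (log2 fold change 1.26) and *Rae1* (0.53), and 1 lower, *Ipo13* (−0.44). Leaving out 1 library gave 0 to 1 higher, the 1 being *Sec13* without heterozygous replicate 2. Without heterozygous replicate 2 and mutant replicate 3 together 3 were called higher, *Xpot*, *Seh1l* and *Sec13*. The cause was not tested. Of the 51 entries, 25 changed sign in at least 1 alternative, of which 1 had a fold change of 0.15 or more in size. The median of the set was 0.01 with median ratio scaling, −0.08 with sex as a covariate and 0.00 to 0.13 on leaving out 1 library.

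Over all genes, 956 were called, 621 without a filter on low values, 14 to 2216 on leaving out 1 library (14, 72 and 2216 with heterozygous replicate 3, 1 or 2 left out, and 95 and 134 with mutant replicate 1 or 2 left out) and 3675 without heterozygous replicate 2 and mutant replicate 3 together. With the replicate block 30 were called and 0 of the set. Deviations of same-numbered pups correlated at 0.05, −0.23 and −0.14, and those of differently numbered pups at −0.16 to 0.19. These values cannot decide whether the numbers are a pairing, since deviations of 3 pups from their own mean are tied together. With 3 pups a genotype and no counts, changes smaller than the interval half-widths of 0.19 to 0.69 in the main fit could not be seen. Larger changes could also go without a call, since the intervals are not adjusted and the calls use the adjusted p. The intervals of *Sec13*, *Seh1l*, *Nup43*, *Xpo4* and *Nup35* did not include 0, and none of these entries was called in the main fit.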

Other observations

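Within the heterozygotes, replicate 2 deviated from the mean of replicates 1 and 3 by a median of −0.11 on the log2 scale in the 8 nuclear transport entries whose longest coding transcript in GENCODE is under 2000 bases, and by 0.20 in the 29 entries of 4000 bases or more. Across all genes tested with a length, the medians were −0.01 for 2970 genes and 0.10 for 4192 genes. These are values across genes of the same libraries, and a part of transcript length, sex or RNA quality in them was not tested.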
